A study of Mus musculus with 4 samples.

Results

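The 10 genes described here, *Dusp4*, *Dusp5*, *Dusp6*, *Spry1*, *Spry2*, *Spry4*, *Spred1*, *Spred2*, *Phlda1* and *Epha2*, are genes that ERK signalling is known to induce, most of which act back on that signalling. They were taken by symbol and Entrez identifier, with no rule on their values, though earlier results of these data were known. All 10 were found among the 28096 identifiers of the deposited tables. RNA sequencing was available for 4 mouse libraries with the genotype label KRasEtv wt, numbered 1 to 4 in accession order. The cells were labelled alveolar type II cells, the epithelial cells that secrete surfactant, sorted as EpCAM+, CD24-, CD45-, CD31- and Pdpn-. They were grown in pure matrigel in BEGM medium with 100 nM 4OHT for 4 days and then for 1 day without it. The study's text names 3 mouse genotypes with 4 animals each, KRaswt/d12;RosaCreERT2, the same with Etv5loxp/loxp, and the same with Etv4KO/KO and Etv5loxp/loxp. Which of them KRasEtv wt stands for is not stated, but all 3 carry KRaswt/d12 and RosaCreERT2, a Cre recombinase expressed from the Rosa locus in all cell types and switched on by 4OHT. Recombination efficiency and age were not given, and the other genotypes and untreated cells were not analysed here, so the results describe levels in this 1 group and their spread.

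ERK, the last kinase of the RAS-RAF-MEK-ERK cascade, is switched on by receptor tyrosine kinases and drives transcription of its own inhibitors. DUSP phosphatases remove the activating phosphates from ERK itself, whereas Sprouty and Spred proteins act upstream and hold back the signal between receptor, RAS and RAF. In the lung the cascade relays FGF and EGF family signals to the epithelium, and transcripts of its feedback inhibitors, *Dusp6* and the Sprouty genes above all, are widely used as a readout of pathway activity.

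The promoters of these genes are shown because the series concerns target genes of Etv factors, members of the ETS family that bind DNA around the core GGAA. Windows of the 250 bases before the RefSeq transcription start (GRCm38.p6) were held for 7 of the 10 genes, namely all but *Dusp4*, *Spry4* and *Phlda1*. *Spry1* (chr3:37639697-37639946, plus strand) and *Spred2* (chr11:19924192-19924441, plus strand) are printed because their levels moved alike over the libraries, and *Dusp6* (chr10:99262981-99263230, plus strand) as the ERK-selective phosphatase; capitals mark GGAA on either strand, so that TTCC is the core on the minus strand.
Spry1: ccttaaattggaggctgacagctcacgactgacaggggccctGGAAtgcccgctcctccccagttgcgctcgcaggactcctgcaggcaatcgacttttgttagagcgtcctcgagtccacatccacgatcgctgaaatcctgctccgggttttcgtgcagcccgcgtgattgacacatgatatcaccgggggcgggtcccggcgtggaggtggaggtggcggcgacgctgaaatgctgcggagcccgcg
Spred2: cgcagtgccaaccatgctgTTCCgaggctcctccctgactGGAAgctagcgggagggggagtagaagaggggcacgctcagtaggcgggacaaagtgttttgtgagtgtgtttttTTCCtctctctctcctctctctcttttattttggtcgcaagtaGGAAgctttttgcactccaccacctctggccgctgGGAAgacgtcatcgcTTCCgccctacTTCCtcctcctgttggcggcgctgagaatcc
Dusp6: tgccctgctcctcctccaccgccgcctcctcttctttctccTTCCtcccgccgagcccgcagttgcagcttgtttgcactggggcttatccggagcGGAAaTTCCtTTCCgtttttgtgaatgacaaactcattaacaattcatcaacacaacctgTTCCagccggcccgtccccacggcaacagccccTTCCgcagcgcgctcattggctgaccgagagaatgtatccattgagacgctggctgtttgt
The *Spry1* window held 1 GGAA core, the *Spred2* window 7 and the *Dusp6* window 6. A core was found in the windows of all 7 genes, but 93.4% of the 32851 windows of this length in the RefSeq table also hold 1 or more. The longer form CCGGAA, which contains the core, was found in none of the 7 windows and in 12.0% of all windows.

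*Dusp5* (chr19:53528895-53529144, plus strand) and *Epha2* (chr4:141300971-141301220, plus strand) are printed for rarer motifs of other factors that respond to growth factor or cAMP signalling. In *Dusp5* the capitals mark 2 adjacent CArG boxes, the motif of serum response factor, which began 82 and 72 bases before the start. In *Epha2* they mark TGACGTCA, the cAMP response element, 33 bases before the start.
Dusp5: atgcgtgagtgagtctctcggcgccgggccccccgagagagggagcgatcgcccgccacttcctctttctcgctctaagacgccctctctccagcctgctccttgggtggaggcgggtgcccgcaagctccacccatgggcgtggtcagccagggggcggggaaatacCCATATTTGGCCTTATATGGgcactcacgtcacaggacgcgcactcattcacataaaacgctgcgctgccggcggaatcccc
Epha2: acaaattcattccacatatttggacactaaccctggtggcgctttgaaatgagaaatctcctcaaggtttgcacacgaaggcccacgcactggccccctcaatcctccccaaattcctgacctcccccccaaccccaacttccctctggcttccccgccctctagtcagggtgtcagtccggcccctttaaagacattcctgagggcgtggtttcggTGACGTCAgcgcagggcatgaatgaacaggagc
A CArG box was present in 1.47% of all windows and TGACGTCA in 1.55%, both searched on both strands, and neither overlapped a GGAA core. The AP-1 motif TGANTCA was in none of the 7 windows and in 6.75% of all. These matches describe letters in a short window, and binding was not analysed here.

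Depth and the type of cell set the frame for the levels. The tables hold between 12133251 and 13591876 counted reads a library, and mitochondrial ribosomal RNA took 23.0%, 35.1%, 19.6% and 38.9% of them in libraries 1 to 4. Markers of type II cells were high, with all 10 above 1 nRPKM (RPKM adjusted by size factors, the deposited level), a summed level from 9261 to 20659 and *Sftpc* at 10006 ± 3649 (SD, n = 4). Markers listed for type I cells (summed level 536 to 703), transitional epithelium (725 to 1436), club cells (150 to 1059) and basal cells (15.4 to 113) were also found. Summed levels of 16.1 to 67.3 for leukocyte, 5.18 to 28.5 for mesenchymal, 10.1 to 17.4 for ciliated and 0.195 to 0.797 for endothelial markers were lower, no endothelial marker reached 1, and no marker of any list was at 0 in all libraries. A sum does not show that a cell type was present. Means were below 1 for *Trp63* and *Ngfr* (basal), *Foxj1* (ciliated) and *Rtkn2* (type I). The same held for *Ptprc*, *Cd3e* and *Cd79a* (leukocyte) and for *Pdgfra* and *Pdgfrb* (mesenchymal). Library 3 stood apart in *Xist*, the RNA of the inactive X chromosome, with 66.3 nRPKM against 0.293, 0.255 and 0.784 in libraries 1, 2 and 4. The labels tie no library to an animal, and spread between libraries may be biological or technical. None of the 10 feedback genes had its highest or lowest deposited level in library 3, where 24.5% of the 11904 genes with a mean of at least 1 were highest and 18.5% lowest; with total counts *Dusp6*, *Spry1*, *Spry4* and *Spred2* were highest there. In bulk RNA, fewer cells of a type and less RNA per cell cannot be told apart.

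Of the 10 feedback genes, 9 reached a mean of 1 nRPKM, against 42.4% of all identifiers, and 8 reached 10, against 13.9%. *Phlda1* was highest at 190 ± 86.9 nRPKM, followed by *Spred1* (46.6 ± 15.04), *Epha2* (26.9 ± 3.50), *Dusp6* (24.0 ± 5.57), *Spred2* (19.2 ± 4.42), *Dusp4* (14.5 ± 3.70), *Spry2* (13.8 ± 1.65), *Spry1* (11.96 ± 3.33), *Spry4* (3.91 ± 0.849) and *Dusp5* (0.395 ± 0.295; SD, n = 4 for each). Their median was 16.9 nRPKM and that of all identifiers 0.345. Adding the 10 levels gave 385, 436, 347 and 236 nRPKM in libraries 1 to 4, of which *Phlda1* alone took 63.0%, 60.8%, 51.7% and 30.2%.

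**Figure D1:**
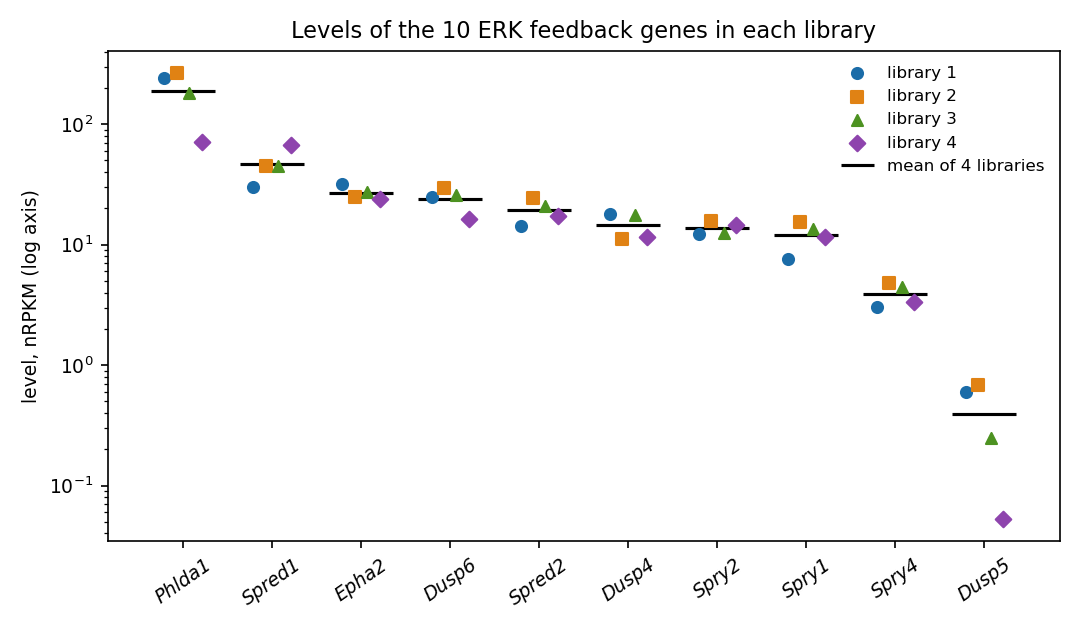
Level of each of the 10 genes (nRPKM, log axis) in libraries 1 to 4 (coloured symbols) with the mean of the 4 libraries (black line), ordered by mean. *Phlda1* lies highest in every library and *Dusp5* lowest, and the genes from *Epha2* to *Spry1* lie close together and change places between libraries.

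Neighbours in this order were compared within each library on the scale of log2(nRPKM + 1). Only 3 of the 9 steps had the same sign in all 4 libraries: *Phlda1* above *Spred1*, *Spry1* above *Spry4* and *Spry4* above *Dusp5*. Each of these gave p = 0.13 in a two-sided exact sign-flip permutation test, the smallest that 4 libraries allow, and an adjusted p of 0.375 over the 9 steps. The other 6 steps, among *Spred1*, *Epha2*, *Dusp6*, *Spred2*, *Dusp4*, *Spry2* and *Spry1*, changed sign in at least 1 library and had differences of 0.04 to 0.72 (exact permutation p from 0.25 to 0.875). *Dusp4* and *Spry2* were the closest pair, apart by 0.04 ± 0.51 (SD, n = 4), with *Dusp4* higher in 2 libraries. None of these 6 neighbouring steps held in every library. Of genes farther apart in the order, some did not overlap, such as *Spred1* (lowest 30.0 nRPKM) and *Spry1* (highest 15.3). Others did, such as *Spred2* (lowest 14.3 nRPKM) and *Spry1*.

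Of the 3 DUSP phosphatases among the feedback genes, *Dusp6* and *Dusp4* were well expressed and *Dusp5* was near the limit of detection. *Dusp6*, the cytoplasmic phosphatase selective for ERK, had 24.6, 29.2, 26.0 and 16.2 nRPKM (libraries 1 to 4) from 1405, 1452, 1523 and 737 reads. It was lowest in library 4, and its level in the other 3 libraries lay within a narrow band. The highest level was 1.81 times the lowest.

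*Dusp4*, a nuclear phosphatase that also acts on other MAP kinases, had 18.0, 11.1, 17.5 and 11.6 nRPKM, from 889, 479, 888 and 457 reads. Libraries 1 and 3 were high and close to each other, and libraries 2 and 4 low and close to each other, with a highest level 1.62 times the lowest. The share of mitochondrial ribosomal RNA split the libraries in the same pairs, at 23.0% and 19.6% in libraries 1 and 3 and 35.1% and 38.9% in libraries 2 and 4, and its part in the *Dusp4* levels was not tested. How many other genes were highest in libraries 1 and 3 was not counted. Scaled to reads without mitochondrial ribosomal RNA, *Dusp4* kept the same pairs, with 19.0 and 17.0 against 11.3 and 11.0.

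*Dusp5*, a nuclear phosphatase selective for ERK, rested on 14, 14, 6 and 1 reads, which gave 0.595, 0.683, 0.248 and 0.0531 nRPKM. Counting alone gives a coefficient of variation of 33.8% at this depth, so no fold is given for it. *Dusp5* took 0.950% ± 0.686 of the summed level of these 3 genes, *Dusp4* 37.6% ± 7.02 and *Dusp6* 61.5% ± 6.58 (SD, n = 4).

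Within the family, *Dusp6* exceeded *Dusp4* in 4 of 4 libraries, by 0.69 ± 0.42 on the log2 scale (exact permutation p = 0.13, adjusted p = 0.146 over 7 within-family pairs). The ratio was 1.37, 2.63, 1.49 and 1.40, so library 2, where *Dusp6* was highest and *Dusp4* lowest, stood away from 3 nearly equal values. *Dusp6* and *Dusp4* also exceeded *Dusp5* in 4 of 4 libraries (exact permutation p = 0.13, adjusted p = 0.146 for each). The size of these differences depends on the pseudocount, at 4.16 and 3.47 log2 units with 1 and 5.84 and 5.11 with 0.1, and was 5.89 and 4.97 in CPM. Reads from the opposite strand may limit the *Dusp5* values, since strand use is not stated: 20.5% of the 50-base words of its transcript lie in an annotated antisense gene. *Dusp6* and *Dusp4* shared 0% of their words with another gene. The RefSeq gene *Gm34921*, whose strand was not examined, overlaps the *Dusp6* gene.

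The 3 Sprouty genes, whose proteins block the path from receptor tyrosine kinases to RAS and RAF, ran from *Spry2* and *Spry1* at similar levels down to *Spry4*. *Spry2* had 12.3, 15.7, 12.6 and 14.7 nRPKM across the libraries, on 499 to 583 reads, and was the steadiest of the 10 genes, with a coefficient of variation of 11.9%. *Spry1* had 7.56, 15.3, 13.5 and 11.5 nRPKM, from 384 to 705 reads. Library 1 was low for *Spry1*, and the highest level was 2.02 times the lowest.

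*Spry4* had 3.06, 4.79, 4.48 and 3.33 nRPKM, from 249 to 431 reads. Libraries 2 and 3 were the higher pair and libraries 1 and 4 the lower. *Spry2* took 47.1% ± 5.67, *Spry1* 39.7% ± 5.01 and *Spry4* 13.2% ± 1.39 of the summed Sprouty level (SD, n = 4).

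*Spry2* exceeded *Spry4* by 1.60 ± 0.24 and *Spry1* exceeded *Spry4* by 1.38 ± 0.20 log2 units, each in 4 of 4 libraries (exact permutation p = 0.13, adjusted p = 0.146). The ratio of *Spry1* to *Spry4* was 2.48, 3.20, 3.02 and 3.44, and that of *Spry2* to *Spry4* was 4.03, 3.29, 2.81 and 4.41. *Spry2* and *Spry1* were not separated: they differed by 0.23 ± 0.33 log2 units, with *Spry2* higher in 3 of 4 libraries (exact permutation p = 0.375, adjusted p = 0.375). In CPM, which has no length correction, their difference was -0.0066, and those of *Spry2* and *Spry1* over *Spry4* were 0.68 and 0.69. Of the words of the *Spry1* transcript, 19.4% lie in a gene model on the opposite strand, and its reads could be told apart only if strand was used in counting, which is not stated.

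*Spred1* and *Spred2*, which bind neurofibromin and bring this RAS inactivator to the membrane, differed in how they moved over the libraries. *Spred1* had 30.0, 44.5, 45.3 and 66.5 nRPKM (libraries 1 to 4) from 1834, 2369, 2843 and 3251 reads. Library 4 was highest and library 1 lowest, by 2.22 times. *Spred2* had 14.3, 24.5, 20.9 and 17.1 nRPKM, from 802 to 1258 reads, highest in library 2 and lowest in library 1, by 1.71 times.

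*Spred1* exceeded *Spred2* in 4 of 4 libraries, by 1.21 ± 0.47 log2 units (exact permutation p = 0.13, adjusted p = 0.146). Their ratio was 2.09, 1.82, 2.16 and 3.88, with library 4 apart from the other 3. *Spred1* took 70.0% ± 6.55 of the summed Spred level (SD, n = 4). The third family gene, *Spred3*, was low at 2.63 ± 0.673 nRPKM, and *Nf1*, which encodes neurofibromin, had 6.47, 7.67, 6.42 and 8.96 nRPKM.

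**Figure D2:**
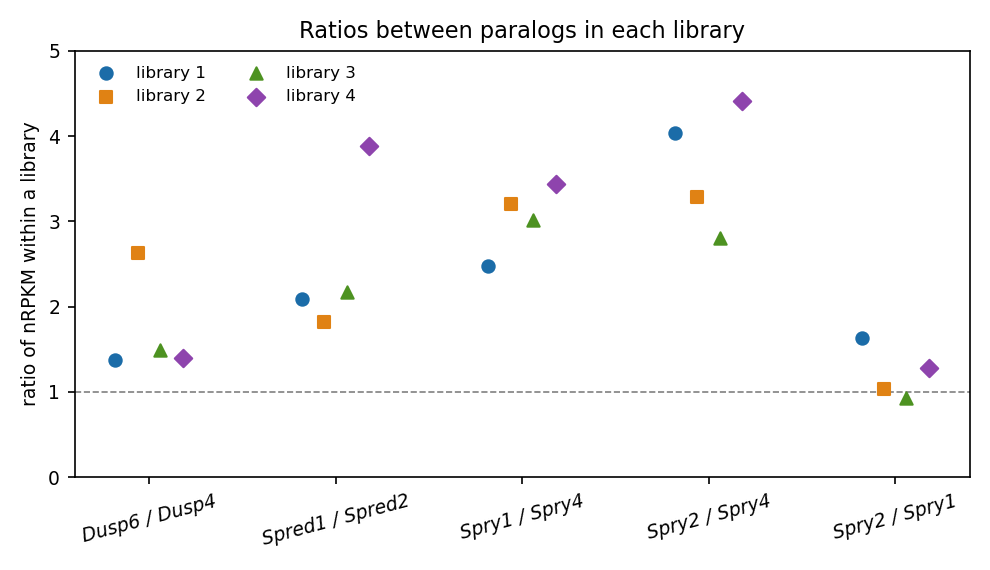
Ratio of nRPKM between genes of the same family within each library (coloured symbols), with equal levels as a dashed line. *Dusp6* to *Dusp4* stands apart in library 2 (2.63) and *Spred1* to *Spred2* in library 4 (3.88), while *Spry2* to *Spry1* falls on both sides of 1.

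*Phlda1*, which encodes a small pleckstrin homology-like protein and is a common marker of ERK output, was the most abundant and the most variable member with enough reads. It had 243, 265, 180 and 71.2 nRPKM (libraries 1 to 4) from 9656, 9199, 7347 and 2267 reads. Library 4 lay far below the other 3, and the highest level was 3.73 times the lowest. *Phlda1* still ranked at 105 among all identifiers by mean level. It exceeded *Spred1* by 8.08, 5.96 and 3.97 times in libraries 1 to 3, but only by 1.07 times in library 4.

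Summed markers of leukocytes (67.3, 57.3, 25.3 and 16.1 nRPKM) and of transitional epithelium (1436, 989, 1012 and 725) were also lowest in library 4, and their part in the *Phlda1* levels was not tested. Of the words of the *Phlda1* transcript, 33.2% lie in *Gm28592*, a long noncoding RNA on the opposite strand, to which the same limit applies. The related genes *Phlda3* and *Phlda2* had 10.35 ± 4.15 and 3.46 ± 1.11 nRPKM (SD, n = 4). *Phlda3* was likewise lowest in library 4, at 5.48 against 15.5, 9.41 and 11.0 in libraries 1 to 3.

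*Epha2*, a receptor tyrosine kinase for ephrin-A ligands whose gene is induced by RAS and ERK, had 31.7, 25.0, 27.1 and 23.8 nRPKM, from 2528, 1734, 2215 and 1515 reads. Its coefficient of variation of 13.0% was the second lowest of the 10 genes, with library 1 highest by 1.33 times over library 4. With total counts it was 27.3%, above those of *Spry2*, *Spred1*, *Spred2* and *Spry4*, and the order of libraries was the same. The mean level of *Epha2* exceeded that of every other EphA receptor and ephrin-A ligand listed, of which 7 of 11 reached 1 nRPKM. The next highest of these were *Epha4* (9.16 ± 0.667) and the ligand gene *Efna1* (7.89 ± 0.780; SD, n = 4).

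Whether the genes differed between libraries by more than genes of their abundance usually do was tested on the counts with edgeR's quasi-likelihood dispersion across all 13156 genes with enough reads. Of 9 feedback genes tested, 0 passed an adjusted p of 0.05, where 0.0152% of all tested genes did. Those called were *Xist* (adjusted p = 0.00226, edgeR) and its antisense gene *Tsix* (adjusted p = 0.00396, edgeR). Since strand use is not stated, reads of *Xist* and *Tsix* may not be told apart. With so few genes called, 0 of 9 does not show that the spread of the feedback genes was ordinary. At an unadjusted p under 0.05, 1 of the 9 passed, where 5.13% of all genes did. That gene was *Phlda1*, with a dispersion 5.72 times the trend, above 97.7% of tested genes (adjusted p = 0.808, edgeR). Without library 4 it no longer passed the unadjusted threshold.

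*Spred1* and *Spry1* followed with dispersions 2.38 and 2.34 times the trend (adjusted p = 0.997 for both, edgeR). *Spry2* at 0.376 and *Epha2* at 0.443 times the trend varied less than most genes, since 22.8% and 27.2% of tested genes lay lower. Spread from counting alone was small for all but *Dusp5*: the observed coefficient of variation was 2.77 times the counting one for *Spry2* and 38.6 times for *Phlda1*. *Dusp5* had too few reads for this test.

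The 10 genes did not rise and fall together over the 4 libraries. By mean-centred log2 level, *Spry1*, *Spry4* and *Spred2* shared the order library 2, 3, 4 and 1 from high to low. *Spry4* and *Spred2* were the closest pair of the 10 genes, with a root mean square difference of 0.081 log2 units, and *Spry1* lay 0.113 from *Spred2* and 0.178 from *Spry4*. *Spry2* (0.18 in library 2 and -0.15 in library 1) had the same highest and lowest libraries. *Spred1* went another way, at -0.56, -0.01, 0.01 and 0.56, and its distance to *Phlda1*, at 0.51, 0.64, 0.08 and -1.24, was the longest of all pairs at 1.10.

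**Figure D3:**
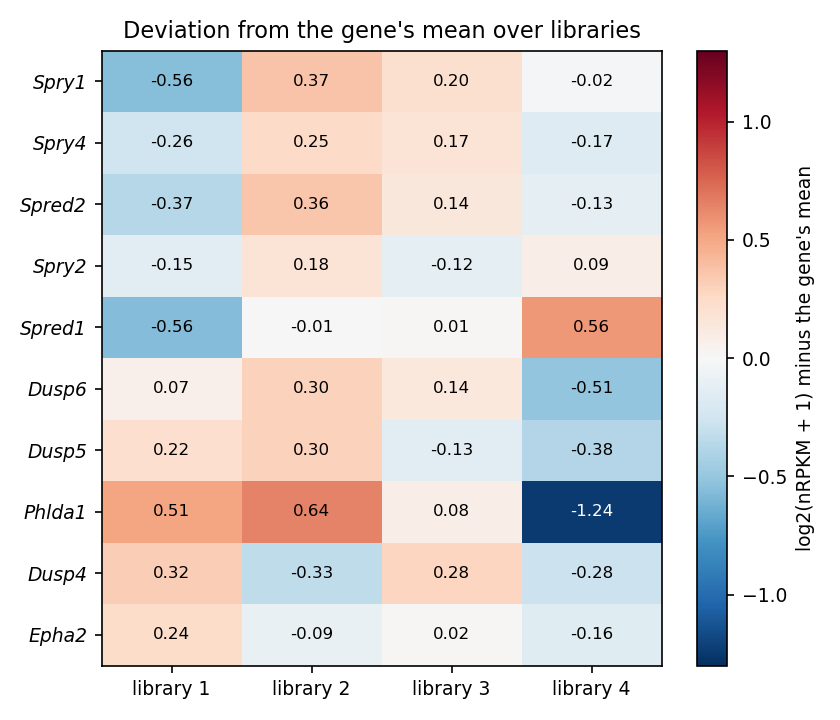
Level of each gene in each library as log2(nRPKM + 1) minus the gene's mean over the 4 libraries (red higher, blue lower; values in the cells). *Spry1*, *Spry4* and *Spred2* are high in libraries 2 and 3, *Spred1* is high in library 4, where *Phlda1* and *Dusp6* are low, and *Dusp4* alternates between high and low.

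The order of *Spry1*, *Spry4* and *Spred2* was also that of *Etv5*, the Etv factor of the series' title with the highest level, which had 16.2, 37.2, 31.3 and 20.6 nRPKM and was singled out after its values were seen. This order held in 3 of the 10 feedback genes and in 4.56% of the 11904 genes with a mean of at least 1. It depends on scaling: with total counts, which shift libraries 1 to 4 by 0.21, -0.09, 0.16 and -0.28 log2 units against the deposited size factors, no feedback gene shared the order of *Etv5*. The order of *Etv5* itself then became library 2, 3, 1 and 4, with levels of 34.96 and 34.91 in libraries 2 and 3. Libraries 2 and 3 remained the highest pair for *Spry1*, *Spry4*, *Spred2* and *Etv5* under all 4 scalings, as they were for 14.7% to 16.9% of the genes with a mean of at least 1. *Etv5* shares 26.8% of its words with a processed pseudogene, so its level is uncertain, and 4 libraries are too few for a correlation.

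All 3 Sprouty and both Spred genes were lowest in library 1, where 26.8% of the 11904 genes were lowest. With total counts this held for *Spry1* and *Spred1*, while *Spry2*, *Spry4* and *Spred2* were lowest in library 4; without mitochondrial ribosomal RNA in the total, *Spry2* was lowest in library 3 and *Spry4* in library 4. Library 1 also had the lowest summed type II markers (9261 nRPKM) and the highest transitional (1436) and basal (113) markers, and their part was not tested. *Dusp5*, *Dusp6*, *Phlda1* and *Epha2* were lowest in library 4, as were 28.2% of genes, and this held under all 4 scalings. In 7 of the 10 genes library 2 was highest, as in 25.4% of genes, but with total counts only *Spry2* of these 7 remained so. Summed club cell markers were also highest in library 2 (1059 nRPKM, against 316, 150 and 280 in libraries 1, 3 and 4), and their part was not tested.

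The genes whose pattern over the 4 libraries was most like that of *Dusp6*, of 3503 other genes with a symbol and a mean of at least 10, were *Map1lc3b*, *Aaas* and *Trp53*, at root mean square differences of 0.0369, 0.0432 and 0.0440 log2 units. *Map1lc3b* had 27.7, 34.5, 28.7 and 18.8 nRPKM and *Trp53* had 35.6, 40.6, 34.8 and 23.4. Among 3503 genes compared over only 4 libraries, close matches can arise by chance. Of the feedback genes, *Dusp5* (0.171) and *Spry4* (0.240), both with means under 10, lay nearest to *Dusp6*, followed by *Epha2* at 0.286 and *Spred2* at 0.292. The value for *Dusp5* says little, since it rests on 35 reads and the added 1 nRPKM compresses its differences between libraries.

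Genes of each step of the upstream pathway, from ligand to kinase, were found in these cells, and the highest ligand and receptor genes were of different families. Of 15 listed ligand genes 9 reached 1 nRPKM, led by the EGF receptor ligands *Areg* (167 ± 41.7) and *Hbegf* (36.7 ± 5.79; SD, n = 4). *Fgf1*, a gene of the FGF family, had 28.4 ± 3.30 nRPKM (SD, n = 4). *Areg* was highest in library 1, with 227 nRPKM against 132, 155 and 152 in libraries 2 to 4. Of 11 receptor genes 8 reached 1, led by the FGF receptor gene *Fgfr2* (55.5 ± 22.6) and the HGF receptor gene *Met* (17.9 ± 2.26). *Fgfr2* had 24.2, 55.1, 66.8 and 76.2 nRPKM, the same order of libraries as *Spred1*, which 6.30% of the 11904 genes had. Without mitochondrial ribosomal RNA in the total, libraries 2 and 3 changed places for *Spred1*.

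Of 19 genes of the RAS-RAF-MEK-ERK core and its adaptors 18 reached 1 nRPKM, with a median of 9.96, led by *Mapk3*, which encodes ERK1 (62.6 ± 11.3), and *Nras* (39.8 ± 4.50). The RAS GTPase-activating proteins, which switch RAS off, were lower, with 6 of 8 at 1 or more and a median of 2.83, led by *Nf1* (7.38 ± 1.20) and *Rasa1* (6.24 ± 1.79; SD, n = 4). Other genes that ERK induces were all at 1 or more (12 of 12) with a median of 15.5, close to the 16.9 of the feedback genes. *Ccnd1*, the gene of cyclin D1, led them at 138 ± 34.5, followed by *Emp1*, a membrane protein gene, at 66.3 ± 11.4.

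Of 16 other negative regulators of the pathway found in the tables, 11 reached 1 nRPKM, and their median was 1.96. *Errfi1*, whose protein inhibits the EGF receptor, was highest at 104 ± 11.4, below only *Phlda1* among the feedback genes. Among the other DUSP genes *Dusp1*, *Dusp7*, *Dusp16*, *Dusp10* and *Dusp9* had 17.0 ± 9.24, 10.35 ± 3.85, 7.77 ± 0.837, 1.65 ± 1.21 and 1.18 ± 0.325 nRPKM, so that only *Dusp1* had a mean above that of *Dusp4*. *Dusp1*, an immediate early phosphatase, had 30.8 nRPKM in library 1 and 11.4 to 12.9 in the others. *Dusp7*, an ERK-selective relative of *Dusp6*, had 12.2, 14.4, 9.24 and 5.52, the order of libraries that *Phlda1* and 5.24% of the 11904 genes had; with total counts *Phlda1* was higher in library 1 than in library 2. The receptor-degrading ubiquitin ligases *Cbl* (5.49 ± 1.06) and *Cblb* (4.60 ± 0.732), *Sh2b3* (2.27 ± 0.284) and the RAF inhibitor gene *Pebp1* (1.55 ± 0.541; SD, n = 4) completed the list.

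**Figure D4:**
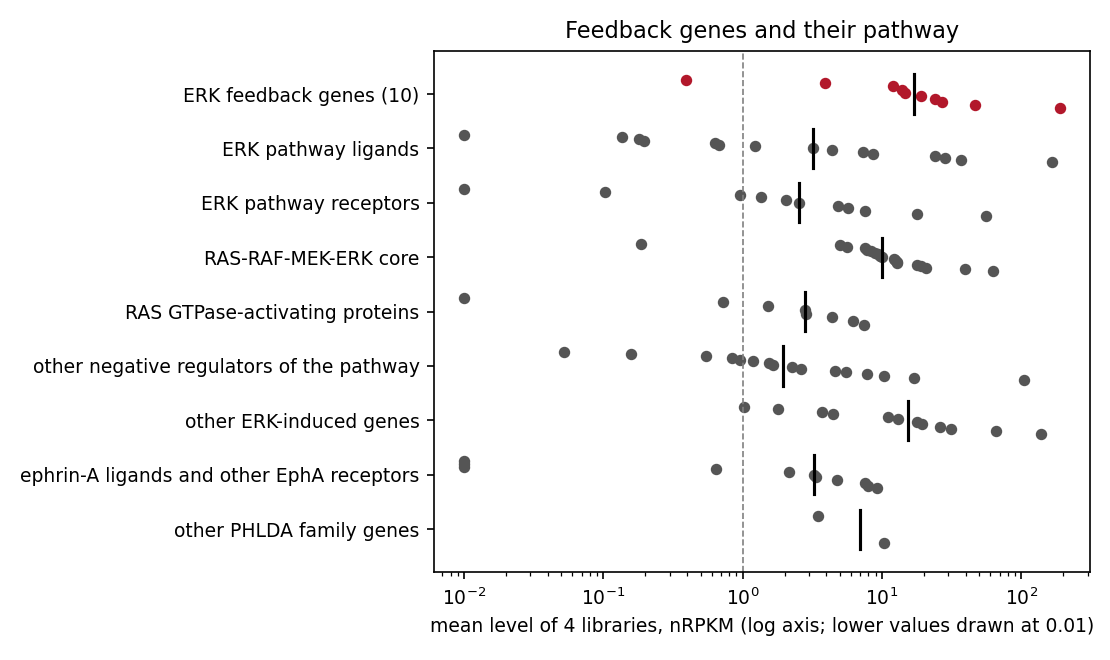
Mean level over 4 libraries (nRPKM, log axis) of each feedback gene (red) and of each gene of the other pathway lists (grey); black bars are list medians, the dashed line marks 1 nRPKM, and height within a row only separates points. Feedback genes and other ERK-induced genes have the highest medians (16.9 and 15.5), and the other negative regulators a median of 1.96 with *Errfi1* (104) far to the right.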

How the data were processed

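Per the labels' protocols, polyadenylated RNA was taken from sorted and cultured type II cells. The authors deposited 2 values per gene and library: a count, which per the file headers is of reads aligning uniquely to the gene model, and an RPKM adjusted by size factors (nRPKM). GSNAP and the mm9 build are named in the submitters' processing notes; for versions, annotation, filters and strand use nothing is given in the sources used here. Symbols for 25035 identifiers and the promoter windows came from RefSeq (GRCm38.p6, names and sequences only), and shared 50-base words from GENCODE vM21 transcripts. The 5' UTR part of each promoter window was left out.

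Levels were taken as deposited, in nRPKM, and log2 values are of nRPKM plus 1, which understates differences of low genes. Genes were compared within libraries by two-sided exact sign-flip permutation tests with Benjamini-Hochberg adjustment. Spread was tested on counts with edgeR 4.0.16 in R 4.3.3 (intercept only, TMM, filterByExpr, quasi-dispersion against the trended prior by the F distribution), after a test on simulated data. DESeq2 1.42.0 was an alternative. A count of 0 allows up to 3 reads, 0.221 to 0.247 CPM, for counting error only. Labels tie no library to an animal, so p-values measure the spread between these libraries, which may be technical. Likeness is the root mean square difference of mean-centred log2 levels.

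The genes and lists were chosen with earlier results of these data known. Named were all 10 genes, the 2 highest of each pathway list, all other negative regulators at 1 or more, the highest gene and the sums of each cell type list, the 3 genes most like *Dusp6*, and any gene the spread test called. Genes named outside this rule, among them *Etv5*, were chosen after their values were seen. Of the cell type lists the highest genes were *Sftpc*, *Aqp5* (185 ± 15.6 nRPKM), *Clu* (378 ± 81.9), *Scgb1a1* (350 ± 358), *Tppp3* (11.6 ± 3.40), *Krt5* (34.0 ± 27.3), *Cd68* (21.7 ± 10.98), *Pecam1* (0.112 ± 0.0625) and *Dcn* (5.52 ± 5.92; SD, n = 4), in the order type II, type I, transitional, club, ciliated, basal, leukocyte, endothelial and mesenchymal. Alternatives were other scalings, pseudocounts and filters, CPM without length correction, and leaving out each library.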

Additional observations from a re-analysis of the deposited data

Results flagged for a closer look

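Of 52 values examined over the 4 libraries, 5 had a library whose gap to the next took more of the group's range than Dixon's critical value allows, and chance gives about 1 in 20. The ratio of *Dusp6* to *Dusp4* was 2.63 in library 2 against 1.37 to 1.49 in the others (gap share 0.907). The ratio of *Spred1* to *Spred2* was 3.88 in library 4 against 1.82 to 2.16 (0.832). *Met* was high in library 4, at 21.3 nRPKM against 16.5 to 17.1 (0.873). *Dusp1* was high in library 1, at 30.8 nRPKM against 11.4 to 12.9 (0.919). The ephrin-A gene *Efna1* was low in library 4, at 6.73 nRPKM against 8.23 to 8.37 (0.915).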

How the results depend on the processing

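Levels of the 10 genes under 70 alternative values, and the numbers of list genes at 1 nRPKM or more under 56, stayed within 1 SD over libraries and within 1.5 times, respectively. For the levels this was largely fixed in advance and does not show stability. Leaving out a library cannot move a mean of 4 libraries by 1 SD, and the scalings kept the geometric mean of the library factors. Without library 4 the mean of *Phlda1* was 229 nRPKM, against 190 with all libraries. Of 42 alternative values of within-family differences 41 kept their direction, though not their size where *Dusp5* or *Spry4* was compared, and of 54 of neighbouring genes 51 did. Many of these outcomes were fixed in advance. Where a pair had the same sign in every library, leaving out a library or changing the pseudocount cannot reverse it. Every within-family pair but *Spry2* and *Spry1* was of this kind, so only CPM could have reversed those. In CPM with no length correction *Spry2* minus *Spry1* was -0.0066, in both comparisons. Leaving out each library in turn, *Dusp4* minus *Spry2* ran from -0.11 (without library 1) to 0.21 (without library 2), and without library 3 it was -0.092. With 3 libraries the exact test cannot go below 0.25, so it says nothing about stability.

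Genes called variable numbered 66 with no filter on low counts and 71 by DESeq2's dispersion outliers, against 2, and 0 to 6 when each library was left out (0 without library 2 or 3, 6 without library 1). None of these settings called a feedback gene. The number of feedback genes in the library order of *Etv5*, examined after the data were seen, was 3, and it was 0 with total counts, 6 without library 1, 5 without library 4, and 3 to 6 over all libraries left out. With total counts the order of *Etv5* itself changed. With a library left out fewer orders are possible, so more genes share one by chance. The share over all genes was not counted for these settings. No paired analysis was possible because the libraries form 1 group. Depth limits *Dusp5*, with 35 reads in all libraries together.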
